A study of Mus musculus with 24 samples.

Results

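The replication-dependent histone genes encode the bulk of the histone protein that packages newly made DNA, and most of their mRNAs end without a poly(A) tail. Their transcripts were followed across 24 kidney libraries, by batch, by histone type and against genes of the cell cycle. Members were the rows of the count table whose symbol begins with Hist1h, Hist2h, Hist3h or Hist4h, or with the newer H1f, H2ac, H2bc, H3c or H4c. The table mixes both namings, and the rule found 72 of 55487 rows, 63 under newer and 9 under older names. They comprised 11 H1, 20 H2A, 17 H2B, 12 H3 and 12 H4 rows.

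The kidneys came from male mice of the B6 background with X-linked Alport syndrome (XLAS, from the Col4a5 line named in the titles), killed at 15 weeks of age. All mice, controls included, therefore carried the disease allele. Of these, 13 were HET and 11 were WT for Nbl1, which encodes a secreted antagonist of bone morphogenetic proteins. Batch 1 held 6 HET and 6 WT mice and batch 2 held 7 HET and 5 WT mice, and the labels do not say in what the batches differed. The sources used here do not say how the Nbl1 allele was made, and no group without the disease allele is labelled.

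As background, the core histones H2A, H2B, H3 and H4 form the octamer around which DNA is wrapped, and H1 is the linker histone that binds where DNA enters and leaves it. Replication-dependent histone genes are clustered, have as a rule no introns, and are transcribed mainly in S phase, with NPAT as coactivator. Their pre-mRNAs are cut just after a short hairpin near the stop codon, the histone stem-loop, which is bound by SLBP and takes the place of the poly(A) tail. Some of these genes also give polyadenylated transcripts that run past the hairpin, a form described in differentiated and non-dividing cells. Replacement histones, such as H1.0 from H1f0 or H3.3 from H3f3a and H3f3b, are made outside S phase from ordinary polyadenylated mRNAs.

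The hairpin could be read in the annotated 3′ untranslated region (UTR) of 43 members, starting 21 to 58 bases after the stop codon with a median of 31. The sites below show the forms that the results turn on, with 5 flanking bases in lower case and the 16-base stem-loop, a 6-base stem around a 4-base loop, in capitals. They were read 5′ to 3′ on the transcript strand from GENCODE M21 transcripts of the GRCm38 build.
H4c3 (Hist1h4c, chromosome 13): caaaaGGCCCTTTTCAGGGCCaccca
H4c8 (Hist1h4h, chromosome 13): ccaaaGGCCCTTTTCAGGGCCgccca
H4c4 (Hist1h4d, chromosome 13): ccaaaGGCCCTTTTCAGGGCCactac
H4c9 (Hist1h4i, chromosome 13): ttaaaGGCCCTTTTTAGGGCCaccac
H4c2 (Hist1h4b, chromosome 13): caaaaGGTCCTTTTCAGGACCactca
H4c1 (Hist1h4a, chromosome 13): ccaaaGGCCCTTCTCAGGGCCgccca
H3c8 (Hist1h3g, chromosome 13): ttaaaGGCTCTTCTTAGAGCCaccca
H2ac20 (Hist2h2ac, chromosome 3): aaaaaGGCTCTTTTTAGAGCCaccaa
H2ac18 (Hist2h2aa1, chromosome 3): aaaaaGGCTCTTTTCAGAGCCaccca
H2bc3 (Hist1h2bb, chromosome 13): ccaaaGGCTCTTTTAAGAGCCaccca
H1f2 (Hist1h1c, chromosome 13): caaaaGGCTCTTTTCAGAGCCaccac

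The 43 hairpins took 8 forms. The form printed for H1f2 and H2ac18 stood in 24 members of the H1, H2A, H2B and H3 types, the form of H2bc3 in 6 members of the H1, H2B and H3 types, and the form of H4c3, H4c8 and H4c4 in 6 members, all of type H4. The form of H4c9 was shared with H4c14 and that of H4c2 with H4c11, and the forms of H4c1, H3c8 and H2ac20 each occurred once. A hairpin of this consensus within the first 100 bases after the stop codon was present in 43 of 57 member transcripts with enough sequence to read (75.4%), and in 7 of 49545 transcripts of other genes (0.0141%). The polyadenylation signals AATAAA or ATTAAA, searched on the transcript strand in the last 60 bases, stood in 23 of the 57 member transcripts (40.4%) against 62.8% of the others. A match describes the annotated sequence and not a site in use.

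Another 8 members had a 3′ UTR of at least 60 bases without the hairpin. They were H1f0, H1f7, H1f8, H1f10, H2bc4, H2bc21, Hist1h2bq and Hist1h2br, of which H1f0, H1f7, H1f8 and H1f10 are replacement or germ-cell linker histones that the naming rule takes in although they are not replication-dependent. For Hist1h2bq and Hist1h2br the readable UTRs belong to transcripts of 2 and 3 exons, and their 1-exon transcripts end at the stop codon. The only annotated transcript of H2bc4 has 2 exons. The 3′ end of the remaining 21 could not be read, because their annotated transcripts stop at or close to the stop codon or have no coding annotation. Of the 72 members, 57 lie on chromosome 13 and 10 on chromosome 3, 66 have a single exon and 4 are pseudogenes. More than 50% of the 50-base words of 35 members also occur in another gene, and 59 members had counts that were not whole numbers in some library. Reads of near-identical copies, such as H2ac18 and H2ac19, cannot be assigned with certainty, and single values of such members are uncertain.

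The libraries held 29551543 to 33020033 expected counts in batch 1 and 36380502 to 50746817 in batch 2. The kidney markers Lrp2, Slc34a1 and Umod, of the proximal tubule and the thick ascending limb, had medians of 5780, 3450 and 2450 CPM (counts scaled to a common library size, with TMM factors) in batch 1 and of 4150, 3560 and 3310 CPM in batch 2. Nbl1 stood at 3.86 to 4.89 CPM in 5 of 6 HET and 7.0 to 7.78 CPM in 4 of 6 WT libraries of batch 1. In batch 2 it stood at 4.22 to 7.82 CPM in HET and 7.0 to 15.1 CPM in WT libraries. The library labelled HET replicate 6 held 9.24 CPM of Nbl1 and no count of its neighbour Htr6, whereas those labelled WT replicate 1 and WT replicate 2 held 5.41 and 3.62 CPM of Nbl1 and 26 and 14 counts of Htr6. The other batch 1 libraries held 8 to 39 Htr6 counts in HET and at most 1 in WT. These 3 libraries, all of batch 1, went against their labels, and counts of members by genotype, by slope and for the spread within batch 1 are given with and without them.

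Histone transcripts were lower in batch 2. The summed level of the 72 members was 710 to 860 CPM over the 12 libraries of batch 1, with a median of 757, and 327 to 398 CPM over the 12 of batch 2, with a median of 361. Every library of batch 1 lay above every library of batch 2. In bulk tissue, fewer cells of a type and less RNA per cell cannot be told apart. Of the 51 members with enough counts to test, 47 were lower in batch 2, 2 were higher and 2 were not called, by edgeR's quasi-likelihood test with genotype as a covariate and Benjamini-Hochberg adjustment at 0.05 over 18339 genes. Batch differences were common in these data: 63.5% of all tested genes were called, 30.9% lower and 32.6% higher in batch 2. Of the 51 members 37 were called and at least 16-fold lower, against 0.927% of all tested genes, and their median log2 fold change was -5.88 against 0.027 over all genes. In 46 of 51 members each batch 1 library exceeded each batch 2 library in CPM, which held for 13.9% of all tested genes. The count filter was grouped by genotype over both batches, so a gene could pass on its batch 1 counts alone. Within batch 2 alone 17 of the members had enough counts to test. With no filter 57 of 68 members were called lower. The counts of members called lower, here and by type and 3′ end below, carry this limit.

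**Figure D1:**
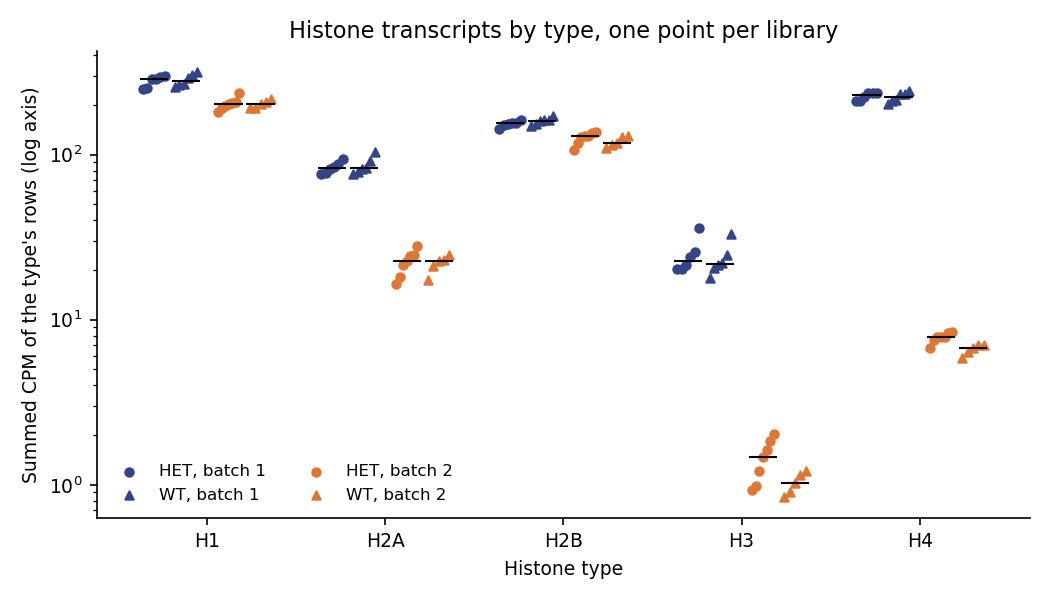
Summed CPM of the H1, H2A, H2B, H3 and H4 rows (x axis) in each library (y axis, logarithmic), with circles for HET and triangles for WT mice, blue for batch 1, orange for batch 2, and a bar at each group's median. H4 fell from 202 to 242 CPM in batch 1 to 5.90 to 8.45 CPM in batch 2, whereas H2B ranged from 142 to 172 and from 106 to 136 CPM.

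The drop was seen in all 5 types. H4, with all 12 members tested and all 12 lower in batch 2, had a median log2 fold change of -6.67, and its summed level went from a median of 226 to 7.31 CPM, a ratio of 30.9. H3, with 9 of 9 tested members lower and a median of -6.84, went from 17.9 to 35.8 CPM in batch 1 to 0.849 to 2.04 CPM in batch 2. H2A, with 10 of 10 lower and a median of -6.75, went from 76.0 to 104 CPM to 16.4 to 27.8 CPM. In none of the 5 types, H2B and H1 included, did the sums overlap between the batches.

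In H2B 11 of 13 tested members were lower, 1 was higher and 1 was not called, with a median of -5.04, yet the summed level went from a median of 156 to 128 CPM, of which H2bc4 alone held 117 and 118 CPM. In H1 5 of 7 were lower and 1 was higher, with a median of -4.21, and the sum went from 249 to 316 CPM to 182 to 236 CPM. The make-up of the histone counts shifted accordingly. H4 made up a median of 28.9% of the members' counts in batch 1 and 2.11% in batch 2, while H1 went from 36.8% to 56.8% and H2B from 20.3% to 35.1%. In batch 2 the 3 genes H1f0, H2bc4 and H1f2 held medians of 34.3%, 32.6% and 21.3% of all member counts.

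Among the H4 genes, which encode a single core histone protein from many copies, the most abundant were H4c3 and H4c8. H4c3 (ENSMUSG00000060678, chromosome 13, 23697635 to 23698454 on GRCm38, minus strand) had a lowest, median and highest level of 73.8, 80.3 and 95.5 CPM in batch 1 and of 0.353, 0.794 and 1.18 CPM in batch 2. In counts these were 2373 to 3119 against 14 to 42. The groups were far from overlapping, and the fitted level was 107-fold lower in batch 2 (95% interval 93.5 to 123, log2 fold change -6.75, standard error 0.096, adjusted p = 1.78e-27).

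H4c8 (ENSMUSG00000060981, chromosome 13, 23531050 to 23531519, plus strand) had the smallest adjusted p of all 18339 genes. Its level was 64.0, 65.9 and 74.4 CPM in batch 1 and 1.26, 1.74 and 2.30 CPM in batch 2. The fitted difference was 38.5-fold (35.1 to 42.2, log2 fold change -5.27, standard error 0.064, adjusted p = 7.29e-32). H4c4 (chromosome 13, 23581598 to 23582735, plus strand) fell further, from 624 to 894 counts to 2 to 7 counts per library, or -7.80 on the log2 scale (standard error 0.11). The hairpins of these 3 genes are identical over their 16 bases and differ in the flanks.

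The other H4 members gave log2 fold changes from -8.27 to -4.33, with 1 exception. H4c9, singled out after its values were seen, held 169 to 224 counts in batch 1 and 131 to 213 in batch 2 and fell by 0.62 on the log2 scale (standard error 0.076, adjusted p = 2.82e-08). Its hairpin has the same form as that of H4c14, which fell by 4.33 (standard error 0.10), and both annotated transcripts run far past it, by 330 and 1257 bases, with a polyadenylation signal near their end.

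The H3 genes were scarce in batch 2. H3c13 (Hist2h3b) held 79 to 182 counts per library in batch 1 and none in 10 of 12 libraries of batch 2, 1450 against 4 counts in all, a ratio of scaled counts of 437 with a counting interval of 170 to 1610. H3c7 (Hist1h3f) held 134 to 191 counts per library against 0 to 4, and H3c6 (Hist1h3e) 84 to 220 against 0 to 5. H3c15 (Hist2h3c2) stood apart with 34 to 150 counts against 28 to 80. It was the 1 H3 member whose groups overlapped in CPM, at 1.06 to 4.95 and 0.704 to 1.85, and its log2 fold change was -1.21 (standard error 0.22, adjusted p = 3.04e-05), or -0.16 and not called on log2(TPM + 1), a scale on which the median of all genes stood at 0.69. H3c14, all of whose 50-base words occur in other genes, had no count in any library, and 63.5% of the 50-base words of H3c15 occur elsewhere, so its reads are uncertain.

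Among the H2A genes the pair H2ac18 and H2ac19, copies on chromosome 3 that share most of their sequence, held most of the type's counts. H2ac18 had 35.9, 44.3 and 53.8 CPM in batch 1 and 10.9, 15.8 and 20.1 CPM in batch 2 (lowest, median, highest), and H2ac19 had 14, 18.4 and 24.7 against 3.15, 5.42 and 7.23 CPM. Their log2 fold changes were -1.53 (standard error 0.079) and -1.84 (0.13), among the smallest drops of any hairpin gene. H2ac20, their neighbour on the same chromosome, dropped from 218 to 320 counts to 0 to 4 counts per library, a log2 fold change of -7.08 (0.18). H2ac6 on chromosome 13 fell by 1.84 (0.17), from 1.5 to 3.68 CPM to 0.415 to 1.19 CPM. H2ac8, like Hist1h2bq, H1f10, H3c14, H3c10, Hist1h2bp and H2bc13 here, was picked out after its values were seen. It had 9 to 44 counts per library in batch 1 and no count in batch 2. Against a floor of 3 counts over that batch the ratio was 115, with a lower counting limit of 92.9.

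H2B was split by gene. H2bc4 (Hist1h2bc, ENSMUSG00000018102, chromosome 13, 23684199 to 23692908, plus strand) had 102, 117 and 126 CPM in batch 1 and 97.7, 118 and 126 CPM in batch 2. The ranges overlap, and its log2 fold change was -0.039 (standard error 0.042, adjusted p = 0.422), but 0.87 and called on log2(TPM + 1), where the median of all genes was 0.69, -0.18 and called with library totals, -0.20 and called on log2(FPKM + 1), -0.13 and called in WT mice alone, and 0.023 in HET mice alone. H2bc21 (Hist2h2be, chromosome 3, 96221119 to 96223738, plus strand), which encodes an H2B variant known from mouse olfactory neurons, had 4.21, 5.20 and 6.25 CPM in batch 1 and 5.88, 6.57 and 7.26 CPM in batch 2. It rose by 0.33 on the log2 scale (standard error 0.058, adjusted p = 1.53e-05).

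Against these, H2bc3, whose annotated transcript ends 23 bases after the hairpin, went from 121 to 217 counts to 0 to 4 counts per library, a log2 fold change of -7.41 (0.26). H2bc6 and H2bc9, whose transcripts run 1861 and 1214 bases past it, fell by 1.85 (0.12) and 2.76 (0.23). Their CPM went from 7.32 to 12.3 down to 1.71 to 4.08 for H2bc6 and from 0.798 to 2.59 down to 0.0192 to 0.347 for H2bc9. Hist1h2bq, the 1 member with a readable 3′ UTR and no hairpin that fell, had 16 to 51 counts in batch 1 and 0 to 5 in batch 2 (log2 fold change -3.85, standard error 0.31). Its 1-exon transcript ends at the stop codon, so a hairpin there could not be read. Of its 50-base words 97.3% occur in other genes.

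The tested linker histones ran from -6.89 to 0.27 on the log2 scale. H1f0 (H1.0, ENSMUSG00000096210, chromosome 15, 79028450 to 79030504, plus strand) had 93.0, 101 and 112 CPM in batch 1 and 113, 121 and 140 CPM in batch 2, and rose by 0.27 on the log2 scale (standard error 0.040, adjusted p = 9.02e-07). H1f2 (H1.2, ENSMUSG00000036181, chromosome 13, 23738808 to 23740367, plus strand), with a hairpin and 840 further annotated bases, had 105, 122 and 140 CPM against 62.5, 76.8 and 90.7 CPM. It fell by 0.68 (standard error 0.053, adjusted p = 4.80e-12) in counts. On log2(TPM + 1) its value was 0.24, below the all-gene median of 0.69 on that scale.

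H1f4 (H1.4) fell by 4.21 (0.11), from 37.0 to 52.7 CPM to 1.38 to 3.75 CPM, and H1f3 (H1.3) by 4.35 (0.25), from 151 to 384 counts down to 3 to 37 counts. H1f1 (H1.1) went from 75 to 154 counts to 0 to 3 counts per library, a log2 fold change of -6.89 (0.26). H1f10, the replacement histone H1X, held 6 to 20 counts in batch 1 and 1 to 29 in batch 2, and its log2 fold change was -0.043 (0.26, adjusted p = 0.896).

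**Figure D2:**
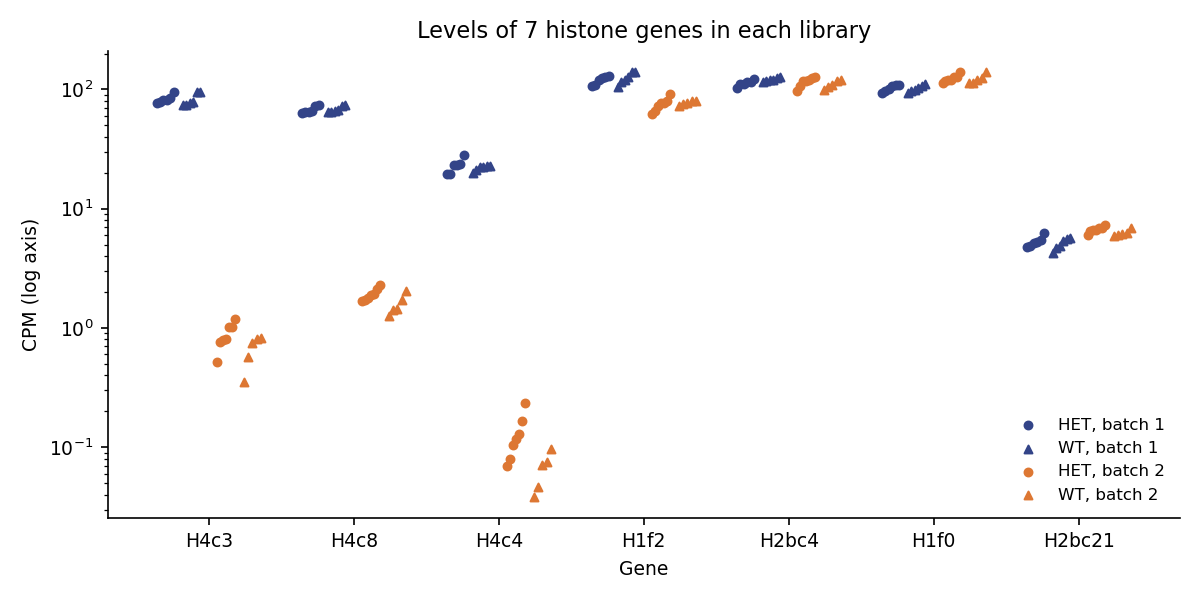
CPM of 7 histone genes (x axis) in each library (y axis, logarithmic), with circles for HET, triangles for WT, blue for batch 1 and orange for batch 2. H4c3, H4c8 and H4c4 fell to 1.18, 2.30 and 0.235 CPM at most in batch 2, H1f2 to 62.5 to 90.7 CPM, and H2bc4, H1f0 and H2bc21 stood at 97.7 to 126, 113 to 140 and 5.88 to 7.26 CPM there.

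The members were also grouped by annotated 3′ end. All 39 tested members with a hairpin were lower in batch 2, with a median log2 fold change of -6.11, and 30 of them were at least 16-fold lower. Over all tested genes 30.9% were called lower, and 0.927% were called and at least 16-fold lower. Of the 5 tested members with a readable 3′ UTR and no hairpin, 1 was lower, 2 were higher and 2 were not called, with a median of -0.039. The 7 tested members whose 3′ end could not be read were all lower, with a median of -6.16. In summed level, hairpin members held 480 to 595 CPM in batch 1 and 94.2 to 131 CPM in batch 2, whereas those without held 215 to 245 and 221 to 267 CPM.

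Among hairpin members, those whose longest annotated transcript ends within 100 bases of the hairpin had a median of -6.81 (21 tested, 18 at least 16-fold lower). Those whose transcript runs further had a median of -4.34 (18 tested, 12 at least 16-fold lower). Over all members with a 3′ end that could be read, hairpin or not, those with AATAAA or ATTAAA near it had a median of -2.85 (12 tested, 5 at least 16-fold lower). Those without the signal had a median of -6.62 over 32. The 12 take in H1f0, H1f10, H2bc21 and Hist1h2bq, with no hairpin in a readable 3′ UTR, so this split in part repeats the one by hairpin. These are descriptions of annotated sequence. H4c3 and H4c4 run 454 and 770 bases past the hairpin and had log2 fold changes of -6.75 and -7.80, whereas H2ac18 and H2ac19 end 35 bases after it and had -1.53 and -1.84. Large and small drops thus occurred with either kind of end.

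**Figure D3:**
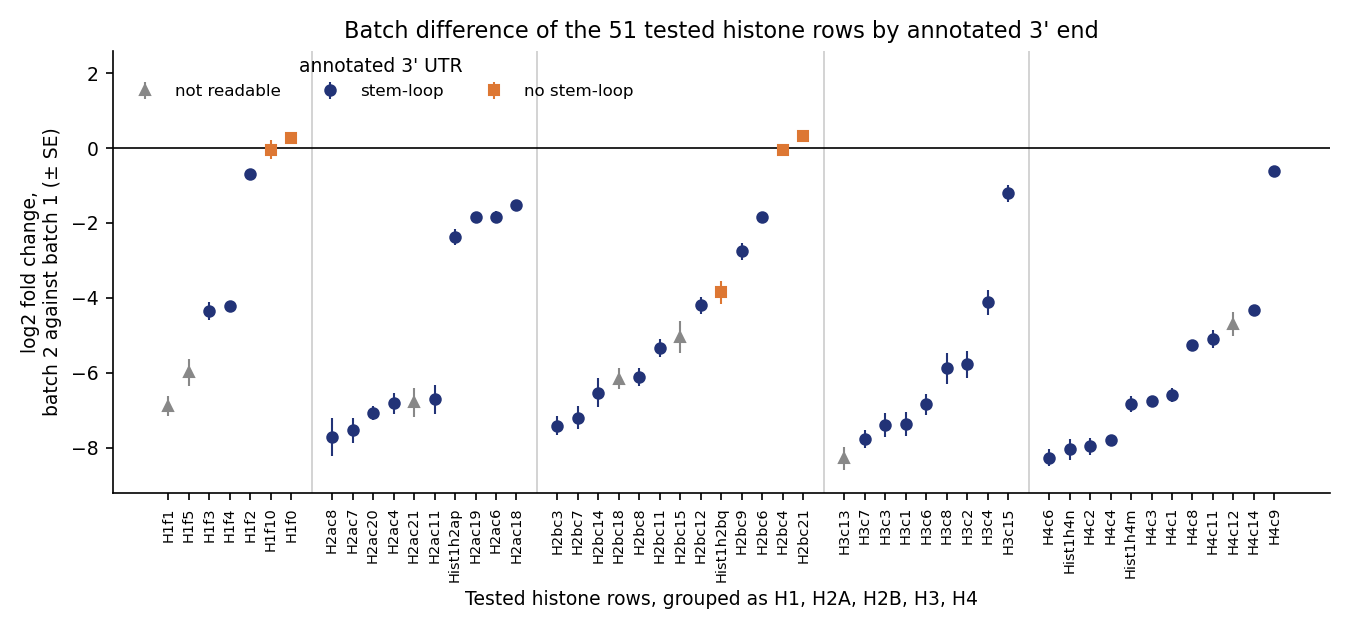
Log2 fold change of batch 2 against batch 1 with its standard error (y axis) for the 51 tested histone rows (x axis), grouped by type and marked by annotated 3′ end: blue circles with a stem-loop, orange squares without, grey triangles not readable. The blue points lie between -8.27 and -0.62, and 4 of the 5 orange points lie between -0.043 and 0.33. The fitted value of H2ac8, which had no count in batch 2, depends on the prior count.

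Other RNAs without a poly(A) tail moved with the histones. Of a list of 40 rows of small nuclear, small nucleolar, 7SK, 7SL and related noncoding RNAs, 27 had enough counts to test. All 27 were lower in batch 2, against 30.9% of all tested genes, with a median log2 fold change of -8.73. The filter limit of the members holds here too, as a gene could pass on its batch 1 counts alone. The summed level of the list went from 55000 to 73500 CPM to 34.1 to 136 CPM. Rn7s1 and Rn7s2, which encode the 7SL RNA of the signal recognition particle and had the same values, went from 21300 to 28700 CPM to 3.08 to 18.4 CPM each, and Rn7sk, which encodes the 7SK regulator of transcription elongation, from 9100 to 12400 CPM to 21.6 to 93.0 CPM. The labels name the same RNA kit and the same mRNA library kit for all libraries. The part of this difference in the histone result was not tested.

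Polyadenylated histone genes and the factors of histone mRNA metabolism showed no such drop. Of 9 tested replacement histones outside the members, 2 were higher, 4 lower and 3 not called, with a median of -0.068. H3f3b and H3f3a, both encoding H3.3, had medians of 174 and 149 CPM in batch 1 and 186 and 155 CPM in batch 2, and H2az1, encoding the variant H2A.Z, 56.7 and 52.2 CPM. Of 17 factors 8 were higher and 4 lower, with a median of 0.061. Over all tested genes 32.6% were higher and 30.9% lower. Slbp, which binds the hairpin, stood at 16.4 to 20 CPM in batch 1 and 16.2 to 20.1 CPM in batch 2 (log2 fold change 0.026, standard error 0.041, adjusted p = 0.602). Npat fell by 0.29 (0.042), and among the 3 most abundant factors Srrt rose by 0.32 (0.027), Upf1, a helicase in histone mRNA decay, fell by 0.26 (0.039) and Tut7 was at 0.061 (0.033, adjusted p = 0.111).

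Cell cycle genes did not fall with the histones either. Of 30 genes of DNA replication, the S phase list, 10 were higher and 2 lower in batch 2, with a median of 0.091. Of 30 mitotic genes 8 were higher and none lower, with a median of 0.25. Over all tested genes the shares were 32.6% higher and 30.9% lower. Pcna, the replication clamp, went from a median of 25.3 to 30.4 CPM. Tyms, which makes thymidylate, was among the 2 that fell, by 1.30 (0.045). Mki67, the Ki-67 proliferation antigen, ranged over 7.84 to 19.5 CPM in batch 1 and 12 to 20 CPM in batch 2 and was not called (adjusted p = 0.258). Some markers of other cells also differed by batch: 7 of 8 macrophage, 3 of 13 lymphocyte and 6 of 6 erythroid markers were higher in batch 2 and none lower. The lymphocyte count was not above the 32.6% of all tested genes. The part of these markers in the result was not tested.

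The order of the members by length-normalized level changed between the batches. In TPM (transcript counts scaled by length and library total), the medians in batch 1 ran from H4c8 at 198 through H4c3 at 99.1, H2bc4 at 89.1, H2ac18 at 84.3 and H1f2 at 65.5 to H2ac19 at 43.1, H1f0 at 40.5 and H4c2 at 38.1. In batch 2 they ran from H2bc4 at 157 through H1f0 at 86.3, H1f2 at 76.8, H2ac18 at 55.6 and H2ac19 at 23.1 to H4c9 at 9.94 and H4c8 at 8.87. H2bc4 and H1f0, with no hairpin in their annotated 3′ UTR, took the first 2 places in batch 2, and H4c8 went from first to seventh place. TPM are shares of each library's length-normalized total, and given the shift of all genes on that scale only the order within a batch is read here.

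Between HET and WT kidneys no histone gene was called. With batch as a covariate, 0 of 51 members and 0% of the 18339 genes tested passed, with a smallest adjusted p of 0.997 by edgeR's quasi-likelihood test, and the DESeq2 Wald test also called 0 members. At an unadjusted p under 0.05 there were 2 of 51 members, against 4.12% of all genes. The members' log2 fold changes had a median of 0.062 against 0.0098 over all genes. Of the members 33 of 51 lay above 0, and of all genes 10319 of 18339. Without the 3 libraries that went against their labels, 0 members were called, 26 of 51 lay above 0 and the median was 0.0017.

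The 2 members at an unadjusted p under 0.05 were H2bc6 and H2bc9. H2bc6 had 8.13 to 12.3 CPM in HET and 7.32 to 11.6 CPM in WT libraries of batch 1, and 1.85 to 4.08 against 1.71 to 2.83 CPM in batch 2. The genotypes overlapped in both batches, and its log2 fold change was 0.29 (standard error 0.12, adjusted p = 0.997), or 0.30 without the 3 libraries. H2bc9 had a median of 1.14 CPM in HET and 1.23 CPM in WT libraries of batch 1 and of 0.275 and 0.119 CPM in batch 2, where it held 7 to 13 and 1 to 8 counts. Its log2 fold change was 0.52 (0.23, unadjusted p = 0.0295), or 0.52 with an unadjusted p of 0.06 without the 3 libraries, and the third in order of p, H1f3, stood at 0.39 (0.23). For the abundant H4 genes the values were 0.074 (0.082) for H4c3 and 0.072 (0.058) for H4c8. Without the 3 libraries they were 0.17 (0.081, unadjusted p = 0.045, adjusted p = 0.922 by edgeR) and 0.10 (0.063).

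Within batch 1 alone, where 57 members could be tested, 0 were called and 2 had an unadjusted p under 0.05, against 2.82% of genes, and the median was 0.0048. Over its 9 libraries left without the 3, 0 of 59 were called (0.0107% of all genes were) and 6 had an unadjusted p under 0.05, against 3.15% of genes, with a median of -0.047. Within batch 2 alone 17 could be tested, 0 were called (0.00557% of all genes were) and 4 had an unadjusted p under 0.05, against 8.28% of genes, with a median of 0.17 and 14 of 17 above 0. The genotype by batch interaction passed in 0 of 51 members and 0% of all genes. The lowest adjusted p of a member was 0.557 by edgeR. At an unadjusted p under 0.05 there were 13 of 51 members, against 8.20% of genes (11 of 51 without the 3 libraries, against 6.74%). An example is H4c8, with 1.69 to 2.30 CPM in HET and 1.26 to 2.03 CPM in WT libraries of batch 2 against 64.0 to 73.9 and 64.1 to 74.4 CPM in batch 1 (interaction 0.30, standard error 0.12, unadjusted p = 0.0189, adjusted p = 0.566). Without the 3 libraries H4c8 stood at 0.25 (0.13, unadjusted p = 0.0601 by edgeR), above that cut. The batch 2 levels behind many of these values are low. H2bc4, with an interaction of 0.16 (0.079, unadjusted p = 0.0487 by edgeR), was an exception, with 3554 to 5663 counts per batch 2 library. Without the 3 libraries it stood at 0.15 (0.086, unadjusted p = 0.091 by edgeR). A difference between the batches was not shown for any member. Beside the members, all 7 testable noncoding RNAs without a poly(A) tail also stood higher in HET in batch 2 alone. Their median was 0.64, none was called, and their part in the histone values was not tested.

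**Figure D4:**
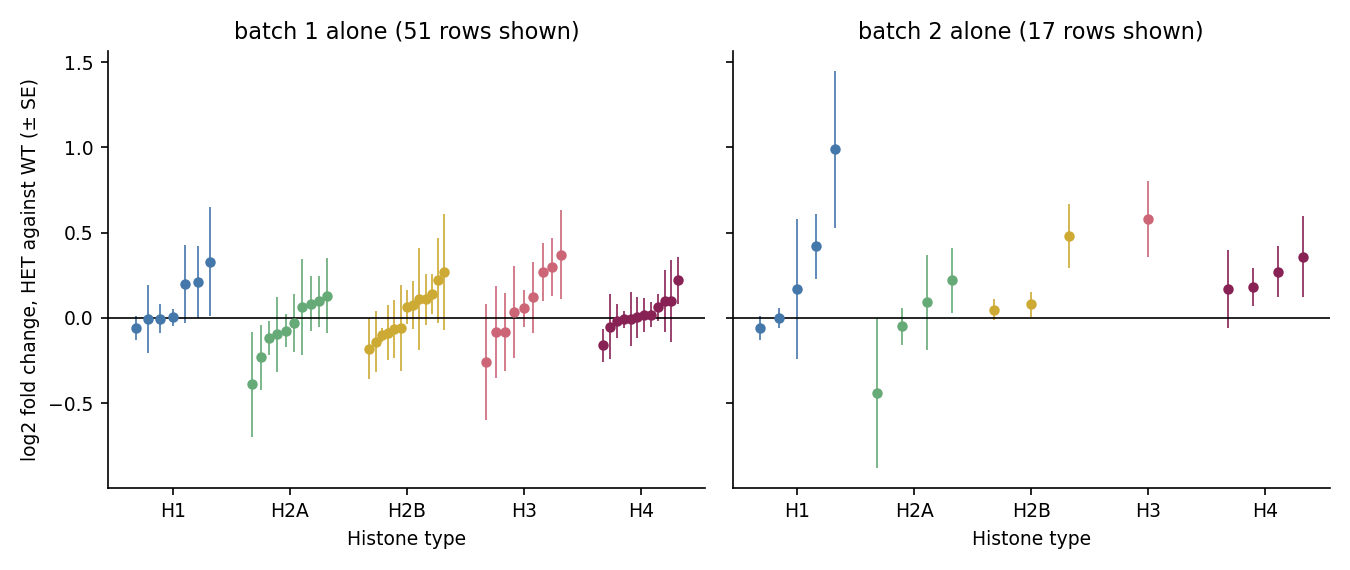
Log2 fold change of HET against WT with its standard error (y axis) for histone rows grouped by type (x axis), tested within batch 1 alone (left, the 51 rows also tested over all libraries) and within batch 2 alone (right, 17 rows). No row was called in either panel, and in batch 2 14 of 17 lie above 0.

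The members were then set against cell cycle genes within batches. The proliferation score is the mean log2 CPM of the 60 S phase and mitosis genes. It ran from 1.21 to 1.68 in batch 1, with HET replicate 2 and WT replicate 2 lowest and HET replicate 6 highest, and from 1.40 to 1.87 in batch 2, with HET replicates 10 and 12 lowest and WT replicate 9 highest. The slope on this score, with batch and genotype as covariates, was called for 0 of 51 members, while 1.22% of all genes were called. Slopes above 0 were found for 41 of 51 members, against 42% of all genes. An unadjusted p under 0.05 was found for 13 of 51, against 12.6% of all genes. The median slope was 0.79 per unit of score against -0.053 over all genes. Without the 3 libraries 42 of 51 lay above 0, with a median of 0.77, and 8 of 51, or 15.7%, had an unadjusted p under 0.05 against 12.1% of all genes. Over all 24 libraries the DESeq2 Wald test called 1 member, H1f1 (adjusted p = 0.0317).

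The members with the smallest p were H4c1, H1f1 and H3c8, none of them abundant. H4c1 had 4.90 to 9.37 CPM in batch 1 and 0.0267 to 0.110 CPM in batch 2, and a slope of 1.41 (standard error 0.39, adjusted p = 0.0740). It was 1.81 with an adjusted p of 0.0425 without the library labelled WT replicate 2, and 1.76 with an adjusted p of 0.150 without all 3 doubted libraries. H1f1 had a slope of 1.82 (0.59, adjusted p = 0.137) and H3c8 of 2.41 (0.94, adjusted p = 0.247). Without all 3 doubted libraries these slopes were 1.61 (0.91, adjusted p = 0.515) and 2.77 (1.43, adjusted p = 0.453) by edgeR. In batch 1, H1f1 was lowest at 2.33 CPM in WT replicate 3 and highest at 5.08 CPM in WT replicate 5, whose scores were 1.37 and 1.59.

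The 3 members of smallest p with a slope below 0 were abundant genes, and none was called. H4c8 had a slope of -0.34 (0.18, adjusted p = 0.456), although 0.48 on log2(TPM + 1), H4c3 of -0.34 (0.26), and H2bc4 of -0.19 (0.14), although 0.52 on log2(TPM + 1). By type, 9 of 9 H3 members had a slope above 0, with a median of 1.47, 11 of 13 H2B (0.78), 10 of 12 H4 (0.65), 7 of 10 H2A (0.30) and 4 of 7 H1 members (0.52). Without the 3 libraries these were 8 of 9 H3 (0.85), 12 of 13 H2B (1.25), 10 of 12 H4 (0.75), 8 of 10 H2A (0.43) and 4 of 7 H1 members (0.49). Of the 5 members with a readable 3′ UTR and no hairpin in it, 2 lay above 0, with a median of -0.10.

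**Figure D5:**
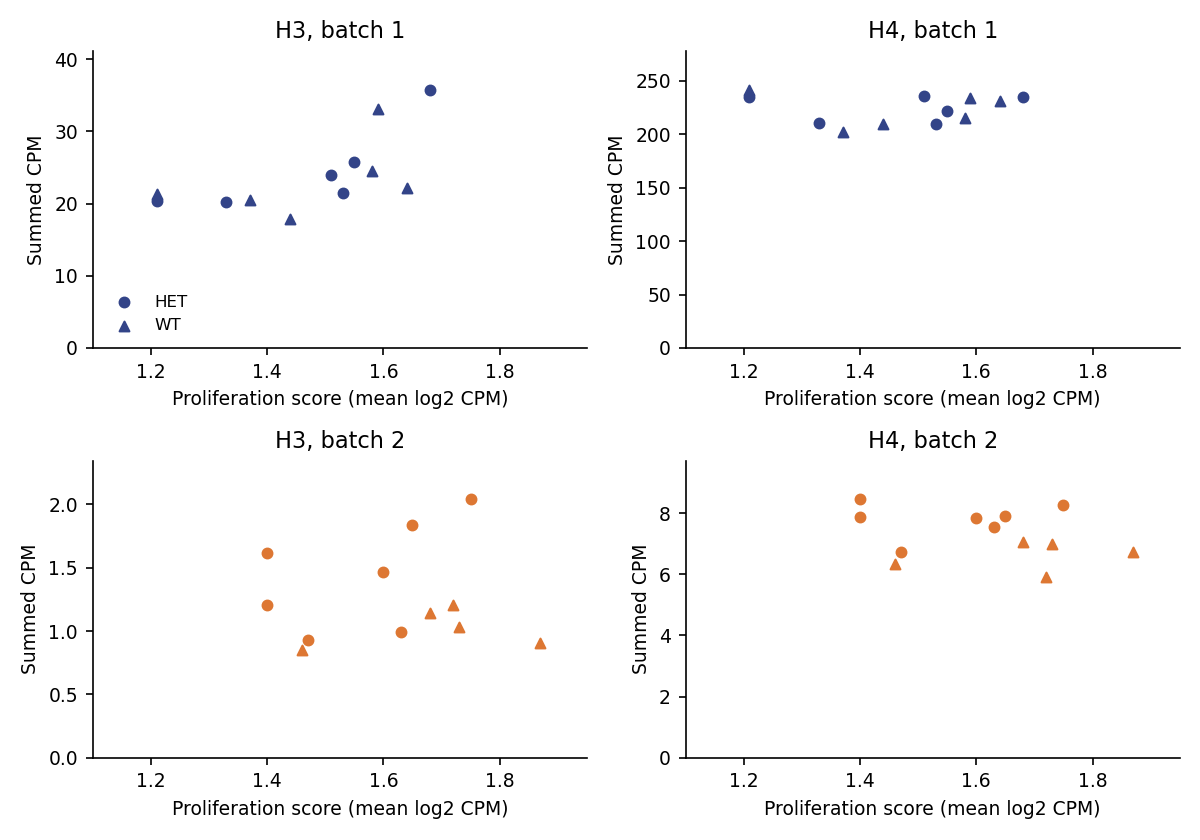
Summed CPM of the H3 rows (left) and H4 rows (right) on the y axes against the proliferation score on the x axes, in batch 1 (top) and batch 2 (bottom), 1 point per library with circles for HET and triangles for WT. In batch 1 the H3 sum was highest in HET replicate 6 at 35.8 and WT replicate 5 at 33.1 CPM, and the H4 sum stayed within 202 to 242 CPM at all scores.

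Each batch was then fitted alone. In batch 1 alone 50 of 57 members had a slope above 0, against 49.8% of all genes, with a median of 1.07 against -0.0015. Of the 57 members 22 had an unadjusted p under 0.05, against 6.58% of genes. None was called (0.00541% of genes were), with a smallest adjusted p of 0.223. Without the 3 libraries 52 of 59 lay above 0, with a median of 1.37, 17 of 59 had an unadjusted p under 0.05 against 5.41% of genes, and 0 were called (0.00535% of genes were). Leaving out each of the 12 libraries in turn left 48 to 53 members above 0, medians from 0.81 without HET replicate 6 to 1.38 without WT replicate 2, and 12 (without HET replicate 2) to 26 (without WT replicate 2) members at an unadjusted p under 0.05. In batch 2 alone, where 17 members had enough counts, 7 lay above 0, against 47.7% of all genes, with a median of -0.16. Of the 17 members 1 had an unadjusted p under 0.05, against 9.55% of genes, and 0 were called, against 0.139% of genes. The difference between the batches was not tested, and most members with a positive slope in batch 1 had too few counts in batch 2.

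Macrophage markers followed the same score, with 6 of 8 called and all 8 above 0 (median 1.41), as did 1 of 13 lymphocyte markers, with all 13 above 0. Their summed levels ran from 102 to 143 and from 11.7 to 201 CPM in batch 1 and from 130 to 199 and from 13.6 to 182 CPM in batch 2, and every tested marker of both lists was above 0 in every library. The part of these cells in the histone slopes was not tested. With the S phase list alone as the score 38 of 51 members lay above 0, with the mitosis list alone 41, and with Mki67 alone 41. Over all genes 42.4%, 43% and 42.9% lay above 0 in the same order.

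The spread between libraries of a batch was also compared. Over the 39 members with a mean of at least 50 counts, the coefficient of variation among the 12 libraries had a median of 18.4%, against 8.55% over 14651 genes, while counting error alone gave medians of 7.70% and 4.05%. In batch 2 the 10 such members had a median of 13.9% against 9.08%. Over the 9 batch 1 libraries left without the 3, these medians were 17.1% against 8.09%. In all 12, WT replicate 5 was the highest library in 13 and HET replicate 6 in 11 of the 39 members, and HET replicate 2 was the lowest in 8 and WT replicate 3 in 7. Among the 9, WT replicate 5 was highest in 23 of 39. The abundant H4c8 varied least of the hairpin genes, at 6.08%, and H3c15 most, at 44.4%.

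Not all members carried data. There were 21 members below the count filter, none with more than 40 counts in any library, and 4 had no count in any library. A count in every library was found for 19. The testis histones H2ac1 and H2bc1 had no count in any library, and H1f6 (H1t) had 0 to 7 counts in each batch 1 library and 0 to 3 in each of batch 2. After rounding, counts in batch 1 were found for 8 members that had none in any library of batch 2. For the best covered of them after H2ac8, the ratios against the floor of 3 counts were 66.7 for H3c10 and Hist1h2bp and 54.7 for H2bc13. Their lower counting limits were 53.7 and 43.9. H3c10 and Hist1h2bp held a fraction of a count in batch 2, which rounding removed. Counting intervals and floors cover counting error only.

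A further 4 histone rows fall outside the naming rule although older annotation calls them Hist3h or Hist4h genes. H4f16, once Hist4h4, held 288 to 399 counts in batch 1 and 1 to 25 in batch 2 (log2 fold change -5.60, standard error 0.17, adjusted p = 4.99e-21), and H2aw, once Hist3h2a, 425 to 660 against 415 to 822 counts (-0.18, 0.072, adjusted p = 0.0321). The other 2, H2bu2 and H2bu1-ps, were below the count filter.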

How the data were processed

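Bulk RNA-seq of 24 kidneys was analysed from the deposited table. Per the labels' protocols, RNA was extracted with the NucleoMag RNA kit, RNA with an integrity number above 8 was used, and libraries were made with the KAPA mRNA HyperPrep kit. The submitters' processing notes name fastp, STAR, featureCounts and the builds GRCm38 and mm10; annotation and settings are not stated there. The deposited table holds expected counts, TPM and FPKM per gene, made by the authors; 11.8% to 15.4% of genes per library had expected counts that were not whole, and these were rounded. Each deposited TPM column sums to the same total, so TPM depend on all other RNAs in a library; deposited FPKM were used in an alternative only.

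Genes were kept by filterByExpr of edgeR 4.0.16 (R 4.3.3, minimum count 10, grouped by genotype), which left 18339 genes, and libraries were scaled by TMM. Batch 2 was tested against batch 1 with genotype as covariate, HET against WT with batch as covariate, the slope on the proliferation score with both, and their interaction, with edgeR's robust quasi-likelihood test and Benjamini-Hochberg adjustment at 0.05. Standard errors were taken from the F statistic and intervals are at 95%. CPM are scaled to TMM library sizes; the score used a prior count of 2. DESeq2 1.42.0 and limma 3.58.1 (log2 of TPM or FPKM plus 1, and of TPM plus 0.1) served as alternatives. The scripts were tested on simulated data.

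Named members were the 4 of highest mean CPM of each type, the 3 of smallest p per direction or comparison, and the testis histones; other lists are shown by their 3 most abundant genes with Mki67, Top2a, Slbp and Npat (Top2a had a log2 fold change of 0.071 between batches). A single gene among those the rule names is left out. The members and gene lists were chosen with earlier results of these data known. Genes were matched to GENCODE M21 by identifier (all 72 members), and the hairpin was searched in annotated transcripts. Replicates were numbered in order of deposition and nothing says that they share litters; each label names a separate library, and p-values measure the spread between these samples. No library repeated another: over 61 pairs within a genotype and batch, the lowest chi-square per degree of freedom was 9.49. The title of HET replicate 8 carries another animal number than its library name, by which its column was matched.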

Additional observations from a re-analysis of the deposited data

Results flagged for a closer look

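In groups of 5 to 7 libraries of a genotype and batch, 8 of 104 tests marked 1 library as far from the rest by Dixon's criterion, which chance does in about 1 in 20 groups. In batch 1, H3c6 stood at 6.80 CPM in the library labelled HET replicate 6 against 3.20 to 3.76 CPM in the other HET libraries, and H2ac6 at 1.5 CPM in the library labelled WT replicate 1 against 2.81 to 3.41 CPM. In batch 2, H2ac18 stood at 13.1 CPM in WT replicate 9 against 15.8 to 16.9 CPM, and H1f3 at 0.988 CPM in HET replicate 11 against 0.0782 to 0.469 CPM. The other 4 rest on 1 to 4 counts in batch 2: H3c8 at 0.110 CPM in HET replicate 7 against at most 0.0464 CPM, H3c7 at 0.0252 CPM in WT replicate 8 against 0, and H3c13 at 0.0261 CPM in HET replicate 8 and 0.0757 CPM in WT replicate 8 against 0.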

How the results depend on the processing

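The count of members called lower in batch 2 was 44 to 57 over 13 alternatives and 46 to 49 with 1 of the 24 libraries left out, and 47 without the 3 doubted libraries; 2 were called higher, except 6 on log2(TPM + 1) and on log2(TPM + 0.1). The median of all genes moved to 0.69 and 0.89 on those scales, and to -0.11 with library totals, against 0.027. Of all called genes 48.7% were lower, but 11% on log2(TPM + 1), 11.3% on log2(TPM + 0.1), 77.2% with library totals and 79.0% on log2(FPKM + 1). Of 888 recomputed batch values of 24 named members, 878 kept direction and call. The reversals were H1f2 at 0.24 and 0.25 (TPM + 1, TPM + 0.1) and H2bc4 at 0.87 and 0.88 there and at 0.023 in HET mice alone. For HET against WT, 0 members were called under any alternative, and over all genes 2 without the 3 doubted libraries and 1 in batch 2 alone; the interaction called 14 genes with library totals. For the slope, members called were 1 by DESeq2, 4 with library totals, 11 on log2(TPM + 1), 2 on log2(FPKM + 1), 9 on log2(TPM + 0.1), and 0 to 1 with 1 library left out (1 without WT replicate 2). Over all genes the 223 slope calls became 416, 4337, 10627, 3805 and 10400 in the same order, 356 with upper-quartile factors, 1 in batch 1 alone, 25 in batch 2 alone, 33 with the mitosis list alone, and 111 (without HET replicate 10) to 344 (without WT replicate 1) with 1 library left out, with 143 without HET replicate 13 and 135 without WT replicate 9. Reversed slopes were H4c8 at 0.48, 0.18 and 0.27 and H2bc4 at 0.52, 0.26 and 0.30 (TPM + 1, FPKM + 1, TPM + 0.1), and H2bc4 at 0.11 with library totals. The cause was not tested. A filter by genotype and batch and the libraries left out within batch 1, singly or the 3 doubted together, were added after the data were examined. No paired analysis was possible because replicate numbers follow the order of deposition and pair no mice. Low counts limit batch 2, where many hairpin members, such as H4c4 at 2 to 7, held few counts per library although its libraries were deeper.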
